A study of Mus musculus with 45 samples.

Results

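The genes described here are the cyclins of the A, B, D and E classes, the cyclin-dependent kinases (Cdks), the Mcm and Cdc genes, the E2F factors, the Aurora and Polo-like kinases, the Bub and centromere (Cenp) genes, and Pcna, Top2a and Mki67. They were taken from the deposited tables by symbol, with Cdc42 left out, whatever their values. The rule found 80 of 10176 genes at E5.25, 89 of 13060 at E5.5 and 89 of 13618 at E5.75, or 90 genes of 15997 in any table and 80 of 8832 in all 3 tables. Cdk6 was not among the rows at E5.5, Ccnd2 was not among those at E5.75, and Ccnd2, Cdc23, Cdc25b, Cdk6, Cdk19, Cdk20, Cenpo, E2f2, Mcm9 and Plk2 were not among those at E5.25. The names Cdc5l, Cdc34, Cdc37, Cdc40, Cdc73, Cdc123, Plk2, Plk3 and Ccnb1ip1 match the rule, but these genes were placed in no phase list. They were kept as a list of their own, which does not mean that none of them acts on the cell cycle.

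Each table holds the frozen mouse embryo of 1 stage, E5.25, E5.5 or E5.75 (E for embryonic day), cut into numbered sections whose RNA was amplified and sequenced. No treatment, strain or genotype is given for the embryos, which had been freed from the decidua, the uterine tissue around them. There were 7 sections at E5.25, 9 at E5.5 and 17 at E5.75, plus 2 samples labelled visceral endoderm at E5.75. Most E5.5 sections were sequenced as parts A and B, which were joined or averaged into 1 value. Nothing in the labels points to more than 1 embryo per stage, so every p-value below compares sections of 1 embryo and carries nothing about the spread between embryos. Which end of the embryo section 1 comes from is not given, and directions are given in section number.

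Division of a cell runs through G1, S (DNA synthesis), G2 and M (mitosis). D-type cyclins with Cdk4 or Cdk6, then cyclin E with Cdk2, phosphorylate the retinoblastoma family and free E2F factors, which transcribe the genes of DNA replication. Cyclin A and cyclin B with Cdk1 then drive mitosis, which ends when the anaphase-promoting complex with Cdc20 destroys the B-type cyclins. The early postimplantation epiblast, the tissue that forms the embryo proper, is known for very short cycles with little G1, while the trophoblast beside it holds both dividing stem cells and giant cells that copy their DNA without dividing.

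Levels are deposited as log2(FPKM + 1), where FPKM is fragments per kilobase of transcript scaled to the reads mapped, so they are on a scale per length and can be set beside each other between genes. No counts are given and the depth is unknown, and a value of 0 says only that a gene is listed at 0. The low-numbered sections held fewer genes. At E5.75 the share of the genes of the table above 0 was 27.2%, 34.3%, 51.8% and 55.2% in sections 1 to 4 and 61.1 to 76.7% from section 5 on. The share of the cell-cycle genes above 0 was 34.8%, 57.3%, 69.7% and 82.0% in sections 1 to 4 and 87.6 to 97.8% from section 5 on. At E5.5 it went from 17.98% in section 1 to 96.6% in section 6, and at E5.25 it was 30.0 to 70.0% in sections 1 to 4 and at least 90.0% in sections 6 to 8. Rn45s, a ribosomal RNA precursor, held 52.8% of all FPKM in section 1 at E5.75 and 69.8% in section 1 at E5.5. Changes along the section number below therefore move together with how many genes a section shows, and the results are also given without sections 1 and 2.

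Markers place the sections. At E5.75 the mean of 10 epiblast markers was 2.94 to 5.83 in sections 1 to 8 and 1.44 to 3.26 in sections 10 to 19, on the log2(FPKM + 1) scale. The mean of 13 markers of extraembryonic ectoderm and ectoplacental cone, the trophoblast tissues of the embryo, was 0 to 1.08 in sections 1 to 8 and 3.90 to 5.05 in sections 10 to 19. At E5.5 the trophoblast list was at 0.16 to 1.45 in sections 1 to 5 and at 3.35 to 3.98 in sections 6 to 10. At E5.25 it was at 0 to 0.42 in sections 1 to 4 and at 3.93 to 4.04 in sections 6 to 8. The epiblast list did not part the sections of the younger embryos: it was at 0.56 to 4.07 in sections 1 to 5 and 1.36 to 2.21 in sections 6 to 10 at E5.5, and at 1.27 to 3.43 in sections 1 to 4 and 1.68 to 2.64 in sections 6 to 8 at E5.25. Markers of trophoblast giant cells (0 to 1.97 in sections 1 to 8, 0.95 to 4.60 after) and of decidua (0 to 1.06, then 0.47 to 3.42) were also higher on average in the later E5.75 sections. Not every marker took part. In sections 10 to 19 the decidua marker Dcn was at 0 throughout, and Hoxa10 was at 0 in all but section 16. The giant cell marker Prl2c2 was above 0 only in sections 16 and 17, and Hand1 is also in the trophoblast list. In such bulk sections fewer cells of a type and less RNA per cell cannot be told apart, and the part of the tissue makeup in the results below was not tested.

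The D-type cyclins changed places along the sections. At E5.75 the level of Ccnd1, the cyclin that growth signals induce in many cells, was 0, 2.18, 4.80, 3.97, 4.24, 3.97, 4.17 and 4.64 in sections 1 to 8. It was 2.30, 1.17, 1.13, 0.96, 1.04, 1.82, 1.15, 1.57 and 2.93 in sections 10, 11, 12 and 14 to 19. Sections 3 to 8 all lay above every later section. Ccnd3, another G1 cyclin that binds the same kinases, was at 0, 0, 0, 2.65, 2.55, 3.36, 2.48 and 3.95 in sections 1 to 8. It was at 4.09, 4.63, 3.37, 4.06, 3.83, 2.57, 3.98, 4.05 and 3.24 in the later sections, so that the ranges of the early and late sections overlapped between 2.57 and 3.95. Within a section, the level of Ccnd3 minus that of Ccnd1 was -4.80 to -0.62 in sections 2 to 8 and 0.31 to 3.46 in sections 10 to 19. The groups did not overlap, and section 1 had both genes at 0.

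The same order of the pair stood in the younger embryos. At E5.5 Ccnd1 was at 0, 0, 2.68, 2.35, 0.35, 0.97, 0, 0.97 and 1.34 in sections 1, 2 and 4 to 10, where Ccnd3 was at 0, 0, 0, 0, 2.99, 2.14, 2.82, 1.60 and 3.15. Ccnd1 was thus the higher of the pair in sections 4 and 5 and Ccnd3 in sections 6 to 10. Ccnd2, the third D-type cyclin, was at 0.46 or below in every E5.5 section. At E5.25 Ccnd1 was at 0, 4.17, 3.46, 0, 1.74, 0 and 1.07 in sections 1 to 4 and 6 to 8, and Ccnd3 was at 0, 1.03, 2.58, 0, 3.56, 2.86 and 3.25. Ccnd1 was the higher in sections 2 and 3, Ccnd3 in sections 6 to 8, and both were listed at 0 in sections 1 and 4.

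**Figure D1:**
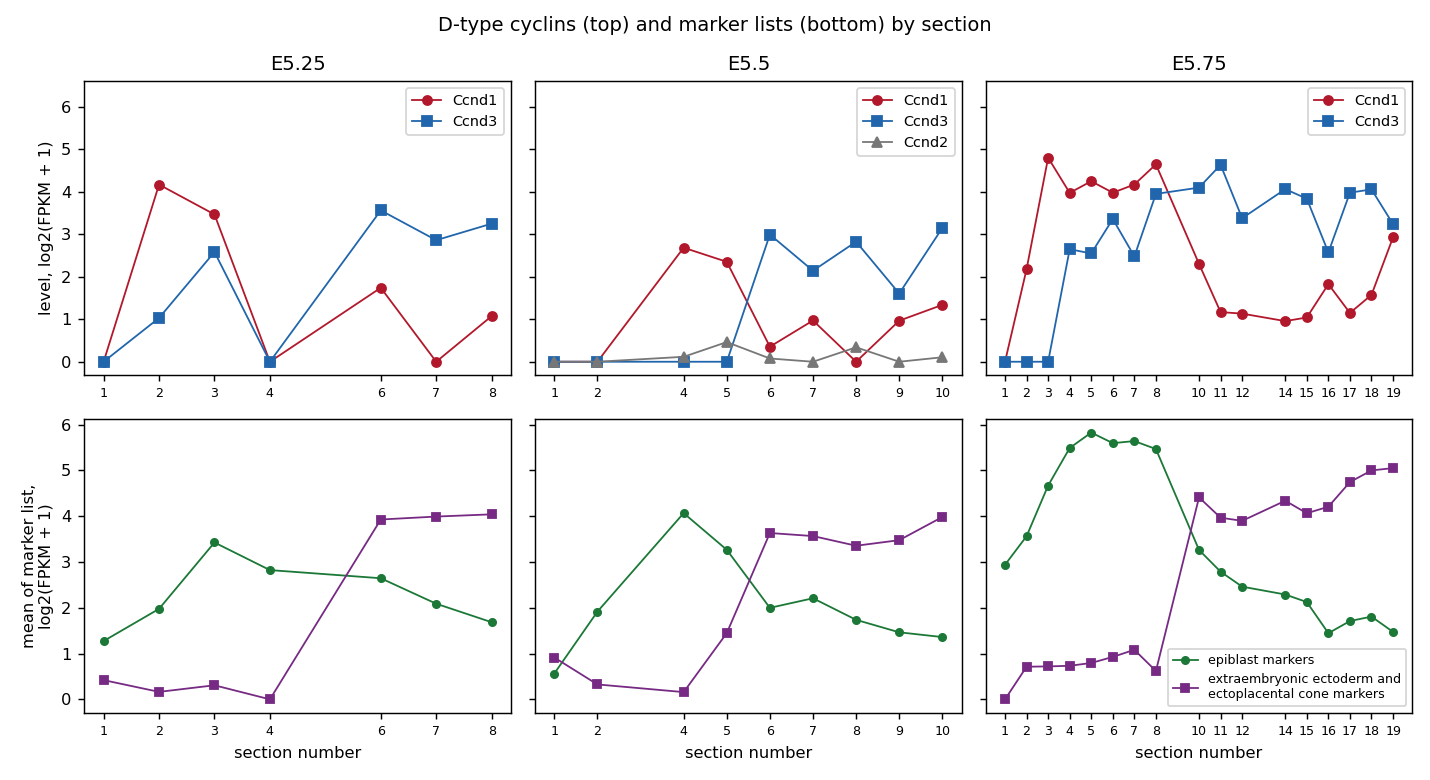
Levels of the D-type cyclins (top) and means of the epiblast and trophoblast marker lists (bottom), log2(FPKM + 1), against section number at each stage, with 1 point per section. Ccnd1 lies above Ccnd3 in sections 2 to 8 at E5.75 and below it in sections 10 to 19, where the trophoblast list lies at 3.90 or above.

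A line in section number was fitted to the difference of each pair, and its change over the range of section numbers was tested by permuting the sections. Over 5 pairs and stages, p-values were adjusted by the method of Benjamini and Hochberg. At E5.75 the difference Ccnd3 minus Ccnd1 changed by 5.09 ± 1.26 (SE) on the log2 scale over 17 sections (permutation test with 100000 resamples, two-sided, p = 0.00107, adjusted 0.00535). At E5.25 it changed by 4.51 ± 1.40 over 7 sections (exact permutation test over 5040 orders, p = 0.0246, adjusted 0.041). At E5.5 it changed by 2.93 ± 1.87 over 9 sections, which did not pass (exact permutation p = 0.164, adjusted 0.204). Ccnd3 minus Ccnd2 at E5.5 changed by 3.26 ± 0.99 (exact permutation p = 0.0188, adjusted 0.041), and Ccnd2 minus Ccnd1 by -0.33 ± 1.06 (exact permutation p = 0.761). The call at E5.25 was lost without any 1 of sections 2, 3, 4, 6, 7 and 8, with an adjusted p of up to 0.12, and the call for Ccnd3 minus Ccnd2 was lost without any 1 of sections 1, 2, 4, 7, 8 and 10. At E5.75 the change stayed between 4.25 and 6.08, and its call was kept, whichever section was left out.

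Gene by gene, Ccnd3 rose at E5.5 by 3.34 ± 0.88 (SE) from the first to the last section (limma, adjusted p = 0.011) and at E5.75 by 3.21 ± 0.83 (limma, adjusted p = 0.0089), and neither call held without sections 1 and 2. The fitted change of Ccnd1 at E5.75 was -1.88 ± 1.003 (limma, adjusted p = 0.18). Its levels were low at both ends and high in between, and without sections 1 and 2 Ccnd1 fell by 3.86 ± 0.85 (limma, adjusted p = 0.0041). Here and below, changes without sections 1 and 2 are scaled to the full range of section numbers, beyond the sections fitted. Between sections 1 to 8 and sections 10 to 19 it fell by 1.93 ± 0.57 (limma, adjusted p = 0.027) and Ccnd3 rose by 1.89 ± 0.56 (limma, adjusted p = 0.029). The row used for Ccnd1 is deposited under a name that joins the cyclin with the microRNA Mir3962. In GENCODE M21 on mm10, Ccnd1 lies on chromosome 7 (144929931 to 144939925, minus strand) and Mir3962 on chromosome 1, so reads of the joined feature are taken here as those of Ccnd1, which the table itself cannot show. Ccnd3 lies on chromosome 17 (47505051 to 47599691, plus strand) and Ccnd2 on chromosome 6 (127125162 to 127152193).

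Of the kinases that the D-type cyclins bind, Cdk4 was high from section 3 on at E5.75 (3.71 to 6.42, with 0 and 0.79 in sections 1 and 2) and rose by 3.14 ± 1.01 (limma, adjusted p = 0.030). At E5.5 it rose by 4.83 ± 0.95 (limma, adjusted p = 0.0022). Cdk6 averaged 0.33 at E5.75 and its fitted change was -0.11 ± 0.44. Both Cdk4 calls were lost without sections 1 and 2, and that at E5.75 also without any 1 of sections 1, 2 and 18.

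Over the whole set, many cell-cycle genes went up with section number, as did many other genes, and the difference between them was not tested. At E5.5, 80 members passed the filter (an FPKM of 1 or more in at least 2 sections); 30 of them rose and 1 fell (limma, adjusted p below 0.05), where 28.3% of all 8251 genes tested rose and 2.61% fell. The median change of the members was 1.71 against 1.22 over all genes tested. At E5.75, 87 members were tested, 20 rose and none fell, beside 18.9% of 11149 genes rising and 2.07% falling, with median changes of 1.19 and 0.80. Without section 1 alone 12 rose, and without section 2 alone 11. After quantile normalization 7 rose, beside 7.55% of all genes, and 4 fell, Cdc14b, Cdk12, Cenpb and Cenpf, beside 4.48%, with medians of 0.51 and 0.16. At E5.25, 75 members were tested and limma called 0 of them, where 0.406% of 7148 genes were called. There 32 members had an unadjusted p under 0.05, 30 of them upward, and the lowest adjusted p was 0.055 for Ccnb1. On simulated data this fit recovered 1.5% of log2 changes of 4 and 37.9% of those of 8, so the lack of calls does not show a lack of change. Without section 3 alone, 3 members rose at E5.25, and without section 4 alone, 11.

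Leaving out sections 1 and 2, which were the poorest in genes at E5.75, took most of this away. At E5.75, 7 members then rose beside 9.38% of 11016 genes, and 2 fell, Ccnd1 and Cdc14b, beside 3.4%. The median change of the members was then 0.41 and that of all genes 0.49. At E5.5 without those sections only Aurkb and Cdc20 still rose, beside 3.71% of 7755 genes, with medians of 1.01 and 1.05. With a section's count of detected genes in the model as a covariate, 2 members, Cdk14 and Cdk19, were called at E5.75, beside 5.6% of all genes, while at E5.5 limma called no gene at all with it. Of the 30 genes that rose at E5.5 and the 20 that rose at E5.75, 12 were the same (40.0% and 60.0% of the lists): Aurka, Ccnb2, Ccnd3, Ccne1, Cdc6, Cdc34, Cdc123, Cdk1, Cdk2, Cdk4, Cenpn and Mcm4. Over all genes tested, 1005 rose at both stages, or 43.1% of those that rose at E5.5 and 47.7% of those that rose at E5.75, and both stages have few genes above 0 in their first sections.

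**Figure D2:**
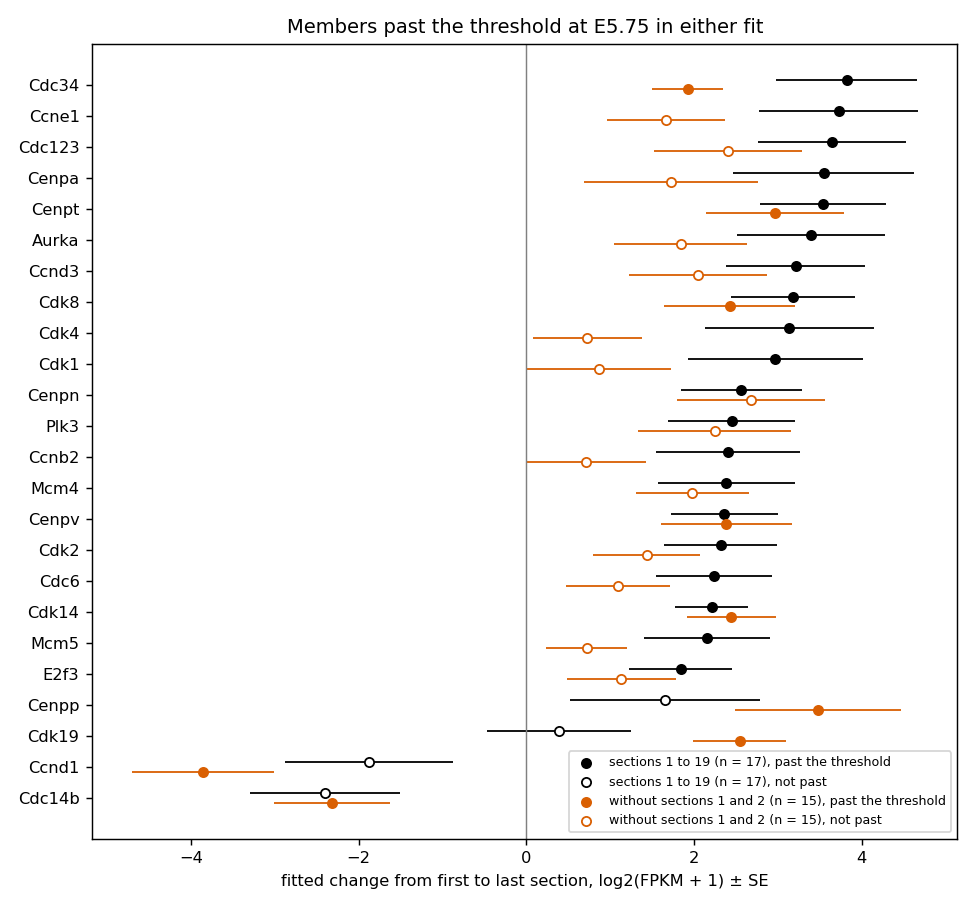
Fitted change (log2(FPKM + 1), with its SE as a bar) of the members past the threshold at E5.75 in either fit, over all 17 sections (black) and over 15 without sections 1 and 2 (orange), with filled points past the threshold and open points not. Both fits are scaled to the full range of section numbers. Cdc34, Cdk8, Cdk14, Cenpt and Cenpv are filled in both, and Ccnd1 and Cdc14b are filled only without sections 1 and 2.

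By phase, the lists had the same low start and then parted. The mean level of the G2 and M list (18 genes at E5.75, among them cyclins A2, B1 and B2, Cdk1 and the Aurora kinases) was 1.33 and 1.99 in sections 1 and 2, 2.85 and 3.44 in sections 3 and 4, and 3.45 to 4.21 from section 5 on. The G1/S and S list (20 genes, with cyclin E, the Mcm genes and Pcna) was at 1.04 and 1.68 in sections 1 and 2 and at 2.91 to 3.72 from section 4 on. The G1 list of 4 genes (Ccnd1, Ccnd3, Cdk4 and Cdk6) was at 0 and 0.74 in sections 1 and 2, at 3.15 to 3.48 in sections 4 to 8 and at 2.15 to 3.16 in sections 10 to 19. In sections 4 to 8 the G1 list stood above the G1/S and S list in each section, and in sections 10 to 19 it stood below it in each section. Ccnd1, 1 of the 4 G1 genes, was itself higher in sections 4 to 8 than in any later section. The lists were not compared without Ccnd1. This order was not seen at the younger stages, but the G1 list held other genes there, so its place cannot be compared between stages. The G1 list at E5.5 (Ccnd1, Ccnd2, Ccnd3 and Cdk4) was the lower in every section but section 10, as in section 5 (1.67 against 1.88). The G1 list at E5.25 (Ccnd1, Ccnd3 and Cdk4, without a gene as low as Cdk6 or Ccnd2) was the higher in sections 1 to 3, 6 (3.65 against 2.71) and 8, and the lower in sections 4 and 7. At E5.5 the G2 and M list was at 0.68 in section 1, 2.08 in section 5 and 3.07 to 3.24 in sections 6 to 10, while the G1/S and S list was at 2.23 to 2.43 in sections 6 to 10.

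In counts, at E5.5, 11 of 17 G2 and M genes tested rose, with a median change of 3.01. Of 18 G1/S and S genes 7 rose, with a median of 1.95, and of 3 G1 genes 2 rose. At E5.75 4 of 18, 6 of 20 and 2 of 4 rose, with medians of 1.61, 1.69 and 1.52. Over all genes tested 28.3% rose at E5.5 and 18.9% at E5.75, so that the G2 and M share at E5.75 was near that of all genes. Under a stricter filter (an FPKM of 5 or more in at least 2 sections) 1878 of 3420 genes rose at E5.5, with a median change of 2.59. At E5.25 the medians were 2.79 (G2 and M), 2.70 (G1/S and S) and 2.07 (G1), and limma called none of these genes. Without sections 1 and 2 at E5.75 the medians were 0.35, 0.91 and 0.15, none of the G2 and M or G1/S and S genes was called, and 1 G1 gene, Ccnd1, fell. The phases were not tested against each other.

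**Figure D3:**
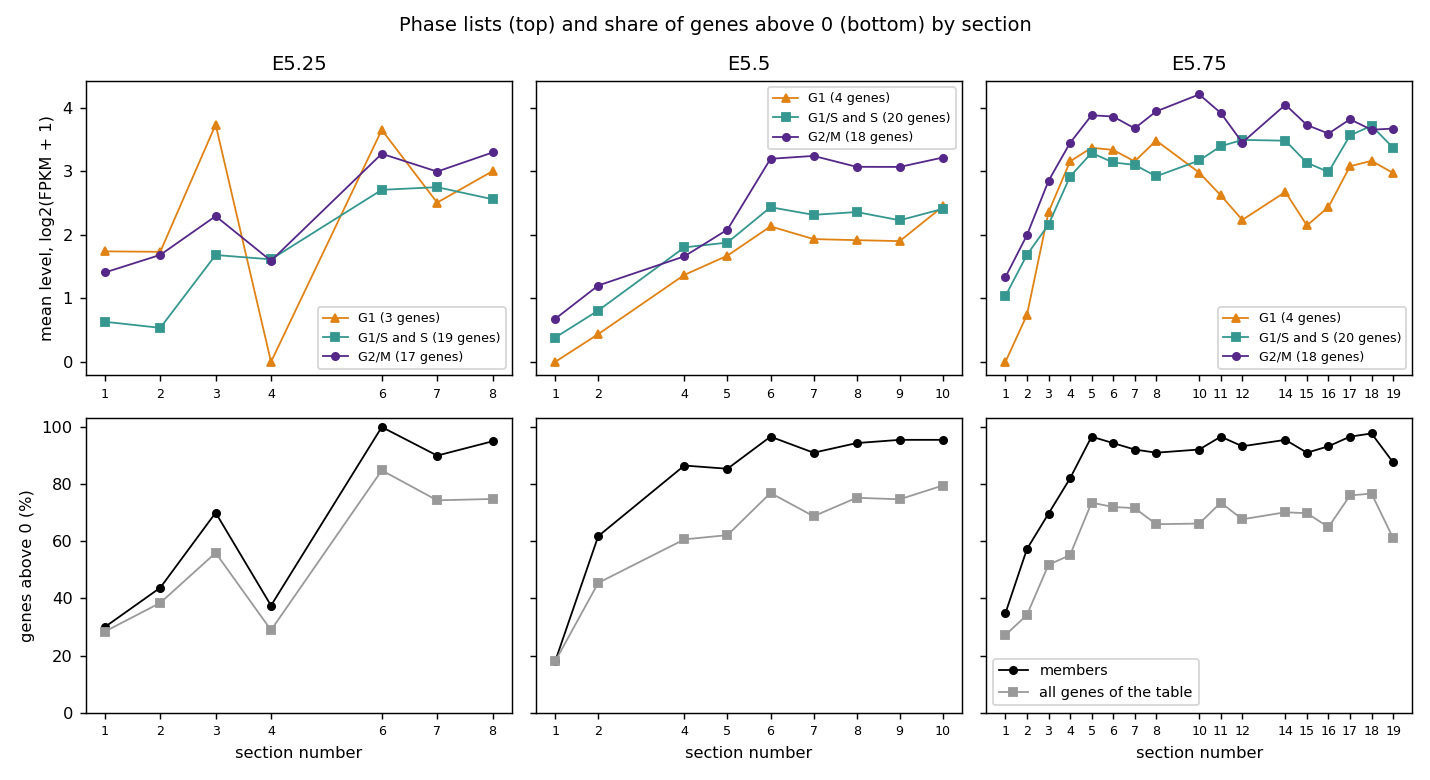
Mean level of the 3 phase lists (top, log2(FPKM + 1)) and share of genes above 0 (bottom, %) against section number at each stage, with 1 point per section. At E5.75 the G1 list lies above the G1/S and S list in sections 4 to 8 and below it in sections 10 to 19, and all lists start low where few genes are above 0.

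The sequence just before the start of these genes is shown because E2F and the factors that bind the CHR element and the CCAAT box are the textbook regulators of S phase and mitotic genes. The motifs searched were the E2F site (TTTCCCGC, TTTCGCGC, TTTGCCGC or TTTGGCGC), the CHR (TTTGAA) and the CCAAT box (CCAAT), on both strands, in the 250 bases before the start. The start sites and bases are those of RefSeq on GRCm38.p6, which held a window for 77 of the 90 genes. Matches may overlap, as in Mcm6, where 2 E2F matches share bases. Below are the last 120 bases before the start in 2 genes of the G1/S and S list, 3 of the G2 and M list and the first listed start of Ccnd3, each 5′ to 3′ along the gene, with matches in capitals.
Mcm6, chr1:128359706-128359825, minus strand: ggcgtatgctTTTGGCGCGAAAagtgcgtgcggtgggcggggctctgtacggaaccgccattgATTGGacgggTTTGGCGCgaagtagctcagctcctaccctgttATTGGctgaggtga
Cdc25a, chr9:109875459-109875578, plus strand: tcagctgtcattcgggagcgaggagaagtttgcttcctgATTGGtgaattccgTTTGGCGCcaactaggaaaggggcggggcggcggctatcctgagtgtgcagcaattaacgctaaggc
Cdk1, chr10:69352913-69353032, minus strand: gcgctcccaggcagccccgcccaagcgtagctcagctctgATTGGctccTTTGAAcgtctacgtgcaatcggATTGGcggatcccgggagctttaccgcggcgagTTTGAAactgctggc
Cdc20, chr4:118437344-118437463, minus strand: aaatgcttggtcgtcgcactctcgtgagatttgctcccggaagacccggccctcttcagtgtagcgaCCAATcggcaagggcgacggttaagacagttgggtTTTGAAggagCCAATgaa
Top2a, chr11:99024190-99024309, minus strand: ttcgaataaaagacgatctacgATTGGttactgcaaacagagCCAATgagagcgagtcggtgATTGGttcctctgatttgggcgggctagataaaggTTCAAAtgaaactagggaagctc
Ccnd3, chr17:47504931-47505050, plus strand: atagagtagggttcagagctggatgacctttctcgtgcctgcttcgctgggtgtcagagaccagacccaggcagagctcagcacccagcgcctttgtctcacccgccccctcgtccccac
Mcm6, a subunit of the replicative helicase, and Cdc25a, the phosphatase that activates Cdk2, hold E2F matches here. Cdk1, Cdc20 and Top2a each hold a CHR match together with CCAAT boxes. This start of Ccnd3 holds none of the 3 in these letters, and a second listed start of Ccnd3 holds a CCAAT box.

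Over all windows the E2F site stood before 2.16% of 27025 symbols, the CHR before 18.3% and the CCAAT box before 37.5%. The E2F site stood before 8 of 18 G1/S and S genes with a window (44.4%), which were Cdc25a, Cdc6, Cdk2, E2f3, E2f7, Mcm5, Mcm6 and Mcm7, and before 1 of 15 G2 and M genes, Cdk1. The CHR stood before 6 of 15 G2 and M genes (40.0%), which were Bub3, Ccnb2, Cdc20, Cdk1, Mki67 and Top2a, and before 6 of 18 G1/S and S genes (33.3%). The CCAAT box stood before all 15 G2 and M genes with a window and before 14 of 18 G1/S and S genes (77.8%). A match is a description of these letters and not a measured binding site.

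Among the cyclins of G1/S and S phase, Ccne1 was the highest-level cyclin of the set in 10 of 17 sections at E5.75 and in 5 of 9 at E5.5, but in 2 of 7 at E5.25, as were Ccna2 and Ccnb1. Cyclin E1 activates Cdk2 at the start of S phase. At E5.75 Ccne1 was at 0 and 0 in sections 1 and 2, at 2.24 to 5.20 in sections 3 to 8 and at 4.15 to 6.01 in sections 10 to 19, with the highest value in section 18. It rose by 3.73 ± 0.95 (limma, adjusted p = 0.0081), and by 2.11 ± 0.65 between the early and the late sections, but not without sections 1 and 2. At E5.5 it rose by 3.54 ± 1.17 (limma, adjusted p = 0.032), a call lost without any 1 of sections 1, 2, 8 and 10, and without sections 1 and 2 its fitted change was -0.68. Ccne2, the second cyclin E, stayed at 0 to 1.07 at E5.5 and at 0 to 2.32 at E5.75 apart from 4.73 in section 1. Cdk2 rose at E5.5 (2.46 ± 0.70) and at E5.75 (2.32 ± 0.67), the latter not without section 2. Cdc25a averaged 3.26 at E5.75 and did not pass at either stage.

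Cyclin A2, which acts in S phase and on into mitosis, rose at E5.5 by 4.30 ± 0.84 (limma, adjusted p = 0.0021). Its levels there were 0, 1.005, 1.90 and 1.86 in sections 1, 2, 4 and 5 and 3.46 to 4.29 in sections 6 to 10, with no overlap. At E5.75 it was at 0.85 and 0.40 in sections 1 and 2 and at 3.46 to 5.34 in every later section, and its change of 1.71 ± 0.94 did not pass (limma, adjusted p = 0.19).

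Among the E2F factors, E2f4 and E2f5, which mostly act as repressors with the pocket proteins, rose at E5.5 (4.58 ± 1.03 and 3.02 ± 0.83), 2 of the 6 tested. At E5.75, 1 of 8 rose, E2f3, an activator (1.84 ± 0.61, limma, adjusted p = 0.035, not called without any 1 of sections 1, 2, 3, 17 and 19), while the change of E2f4 was -0.01 ± 0.95. E2f6, E2f7 and E2f8, further repressors, had changes of 1.70 ± 0.77, 1.07 ± 0.74 and 1.49 ± 0.73 at E5.75 that did not pass.

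Of the replication genes 5 of 12 rose at E5.5 and 3 of 12 at E5.75, beside 28.3% and 18.9% of all genes tested. Pcna, the sliding clamp of the replicative polymerases, had the highest mean FPKM of all members at each stage (89.7 at E5.25, 34.9 at E5.5 and 82.1 at E5.75). At E5.5 it was at 0, 0, 5.17, 3.68, 6.17, 4.84, 5.62, 6.09 and 5.76 in order of section and rose by 6.16 ± 1.23 (limma, adjusted p = 0.0024), a call that was lost without sections 1 and 2. At E5.75 it was at 3.44 and 0.48 in sections 1 and 2 and at 5.07 to 7.32 afterwards, and its change of 2.19 ± 1.02 did not pass. Mcm4, of the Mcm2 to Mcm7 helicase, rose at both stages (3.60 ± 0.82 and 2.38 ± 0.82), Mcm7 at E5.5 (3.79 ± 0.93) and Mcm5 at E5.75 (2.15 ± 0.75). Both calls at E5.75 depended on single sections: that of Mcm5 was lost in 10 of the 17 fits without 1 section (1, 2, 3, 10, 11, 12, 14, 15, 17 or 18), and that of Mcm4 without 1, 3, 4, 14, 17 or 18. Cdc6, which loads that helicase, rose at both (2.004 ± 0.66 and 2.24 ± 0.69), but not without any 1 of sections 1, 2, 8 and 9 at E5.5 and of sections 1 and 2 at E5.75. Cdc45, part of the running helicase, had a change of 1.96 ± 0.80 at E5.75 that did not pass (limma, adjusted p = 0.080).

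The mitotic kinases and their cyclins were the list with the most calls at E5.5, where 7 of 8 tested rose with a median change of 3.43. At E5.75 3 of 9 rose, with a median of 1.62. Over all genes tested 28.3% and 18.9% rose. Of the genes that passed the stricter filter at FPKM 5, 1878 of 3420 rose at E5.5, with a median change of 2.59. Ccnb1, the main mitotic cyclin, was at 0, 0, 3.12, 3.14, 4.06, 4.37, 4.47, 3.25 and 4.80 at E5.5 and rose by 4.64 ± 1.0005 (limma, adjusted p = 0.0036). At E5.75 only section 1 was at 0, all others lay between 2.64 and 4.82, and the change of 1.26 ± 0.82 did not pass. At E5.25 it was listed at 0 in all of sections 1 to 4 and was at 4.65, 4.43 and 3.997 in sections 6 to 8. Ccnb2, a second cyclin B, was likewise at 0 in sections 1 to 4 at E5.25 and at 3.24, 2.06 and 3.44 in sections 6 to 8.

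Cdk1, the kinase of the mitotic cyclins, was at 0, 0, 0.53, 2.53 and then 3.31 to 4.38 at E5.5, and rose by 4.83 ± 0.99 (limma, adjusted p = 0.0027). At E5.75 it was at 0.84, 0 and 1.12 in sections 1 to 3 and at 4.19 to 5.87 from section 4 on, and rose by 2.97 ± 1.04 (limma, adjusted p = 0.044), a call lost in 10 of the 17 fits without 1 section (1, 2, 3, 11, 12, 14, 16, 17, 18 or 19). Plk1 and Aurkb, kinases of spindle and chromosome segregation, rose at E5.5 by 4.62 ± 0.98 and 3.01 ± 0.68, and had changes of 1.92 ± 0.90 and 1.62 ± 0.87 at E5.75 that did not pass. Aurka, the kinase of the spindle poles, rose at both stages (3.32 ± 1.05 and 3.39 ± 0.88), that at E5.5 not without section 1. Ccnb2 also rose at both (3.55 ± 0.74 and 2.41 ± 0.86), but its call at E5.75 was lost in 10 of the 17 fits without 1 section (1, 2, 7, 10, 11, 14, 15, 16, 17 or 18). Cdc25c, a phosphatase that activates Cdk1, rose at E5.5 (2.35 ± 0.66), and Plk4, the kinase of centriole duplication, did not pass at either stage.

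Between sections 1 to 4 and sections 6 to 8 at E5.25, 15 of the 75 members tested rose, a share near the 20.3% of all genes tested. The share of the genes of the table above 0 was 28.4 to 56.0% in sections 1 to 4 and 74.3 to 84.8% in sections 6 to 8. Ccnb1 rose by 4.36 ± 0.55 (limma, adjusted p = 0.0063) and Ccnb2 by 2.91 ± 0.52 (limma, adjusted p = 0.0090). Both were listed at 0 in all of sections 1 to 4, so they passed the filter only through sections 6 to 8. These p-values therefore do not part a rise in level from genes missed in the early sections. The others were Cdc6, Cdc16, Cdc26, Cdc34, Cdc45, Cdc123, Cdk8, Cenpi, Cenpk, Cenpv, E2f6, E2f8 and Mcm3. Of these, Cdc16, Cdc45, Cdc123, Cenpi and Cenpv were also at 0 in all of sections 1 to 4.

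**Figure D4:**
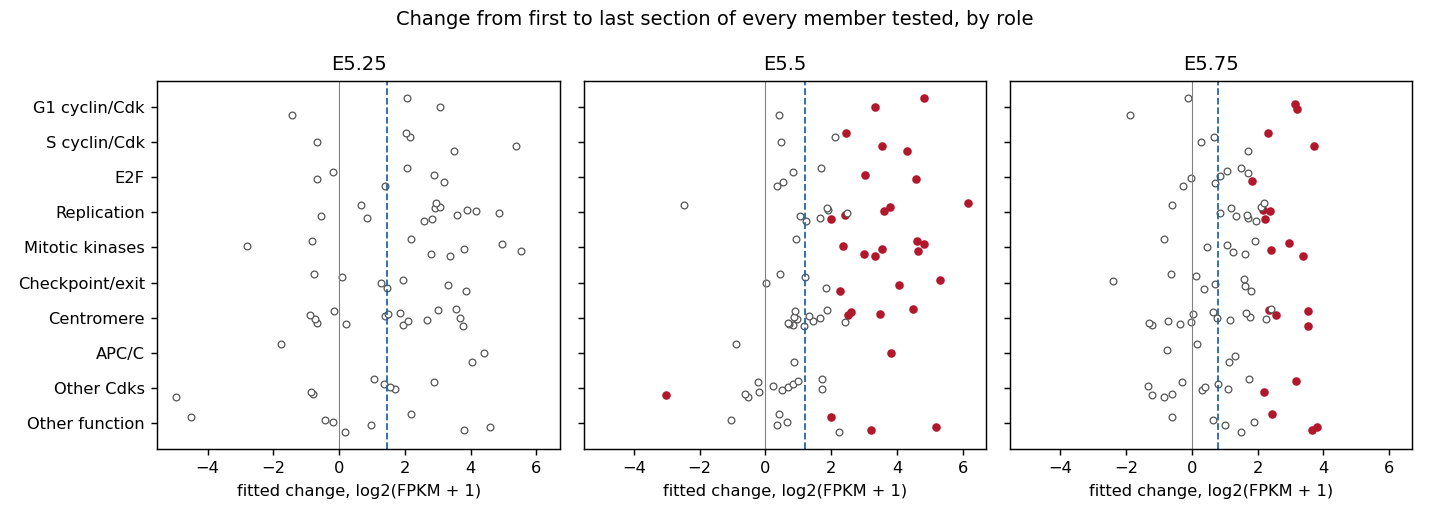
Fitted change from the lowest to the highest section number (log2 scale) for each member tested, by role, in 1 panel per stage, where red points passed the threshold, open points did not, and the dashed blue line is the median of all genes tested. Of the mitotic cyclin and kinase list 7 of 8 rose at E5.5 and 3 of 9 at E5.75, and none was called at E5.25.

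Of the genes of the mitotic checkpoint, exit and chromosomes, 3 of 7 tested rose at E5.5 and none of 8 at E5.75, where 28.3% and 18.9% of all genes tested rose. Cdc20, the activator of the anaphase-promoting complex, had the smallest adjusted p of the members at E5.5. It was at 0, 0.70, 0.35 and 2.46 in sections 1, 2, 4 and 5 and at 4.10 to 4.80 in sections 6 to 10, a rise of 5.30 ± 0.95 (limma, adjusted p = 0.0014). Without sections 1 and 2 it still rose, by 5.42 ± 1.41 (limma, adjusted p = 0.048), as did Aurkb, by 4.004 ± 1.03 (limma, adjusted p = 0.046). Both changes are scaled to the full range of section numbers. In sections 4 to 10 Cdc20 lay between 0.35 and 4.80 and Aurkb between 0 and 2.68. At E5.75 Cdc20 was at 0 in section 1 and at 3.45 to 5.15 elsewhere. Bub3 and Bub1, of the spindle checkpoint, rose at E5.5 (4.06 ± 0.99 and 2.28 ± 0.78), while Bub1b did not pass (1.83 ± 0.83). The call for Bub1 was lost without any 1 of sections 1, 7, 8, 9 and 10.

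In section 1 at E5.75 some of this group were high where most members were low, as were some members of other lists. Cenpp (6.35), Cenpe (5.39), Cdk20 (5.06), Ccne2 (4.73), Cenpq (4.41), Cdc37 (4.23), Cdc27 (3.79), Cdk19 (3.78) and E2f7 (2.81) also had their highest value there. That section had the highest summed FPKM of the 17 (659683) and the fewest genes at an FPKM of 1 or more (3211). Top2a, the topoisomerase that untangles chromosomes, lay between 5.14 and 6.76 in all 17 sections at E5.75, section 1 (6.33) included, with a change of -0.62 ± 0.47. Mki67, the proliferation marker, had its highest value of 5.78 in section 1 and lay between 3.03 and 5.05 elsewhere, with a change of 0.14 ± 0.63. Cdc14b, a phosphatase, was also highest in section 1 (6.24), then lay between 0.11 and 3.65 in sections 2 to 8 and between 0 and 2.40 in sections 10 to 19. Without sections 1 and 2 Cdc14b fell by 2.32 ± 0.69 (limma, adjusted p = 0.030). Section 1 of E5.5 went the other way: Top2a (2.28) and Mki67 (0.73) were lowest there, and Cdc14b was at 0. In section 1 of E5.25 Mki67 was also at its lowest (1.31) and Cdc14b at 0, while Top2a was at 5.10.

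Of the centromere proteins 4 of 16 tested rose at E5.5 (Cenpn, Cenpp, Cenpq and Cenpw) and 4 of 17 at E5.75 (Cenpa, Cenpn, Cenpt and Cenpv), shares near the 28.3% and 18.9% of all genes tested. The call for Cenpn at E5.5 was lost without any 1 of sections 1, 2, 9 and 10. Cenpt, which ties the inner kinetochore to microtubule-binding proteins, was listed at 0 in sections 1 to 4 at E5.75 and at 1.69 to 4.27 afterwards. It rose by 3.54 ± 0.75 (limma, adjusted p = 0.0021), and by 2.97 ± 0.82 without sections 1 and 2. Cenpa, the centromeric histone, rose by 3.54 ± 1.08 at E5.75, but not without any 1 of sections 1, 2 and 3. At E5.5 its highest value, 6.22, was in section 1, followed by 0 in section 2, and its change of 1.16 ± 1.43 did not pass. Cenpw rose at E5.5 by 4.50 ± 0.87 (limma, adjusted p = 0.0021), and its change at E5.75 was 2.42 ± 0.88 (limma, adjusted p = 0.052). Of the subunits of the anaphase-promoting complex in the set, Cdc26 rose at E5.5 (3.82 ± 0.88), and none passed at E5.75.

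Of the 12 Cdks of transcription and other roles, 2 rose at E5.75 and 1 fell at E5.5. Over all genes tested, 18.9% rose at E5.75 and 2.61% fell at E5.5, so the share that rose was near that of all genes. Cdk14, a kinase known for its part in Wnt signalling with cyclin Y, had the smallest adjusted p of the members at E5.75. It was listed at 0 in sections 1 to 6 and was at 0.31 and 0.25 in sections 7 and 8 and at 0.52, 0.82, 0.995, 1.93, 1.78, 0.68, 1.98, 1.37 and 2.26 in sections 10 to 19. Every section from 10 on lay above every section before, at low levels throughout. The filter's FPKM of 1 was reached only in sections 14, 15 and 17 to 19. Cdk14 thus entered the test only through sections where it was high. Cdk14 rose by 2.21 ± 0.44 (limma, adjusted p = 0.0012), and by 2.55 ± 0.61 with that covariate (limma, adjusted p = 0.014). At E5.5 its change was -0.20 ± 0.83. Its gene lies on chromosome 5 (4803391 to 5420312).

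Cdk8, a kinase of the Mediator complex, rose at E5.75 by 3.18 ± 0.74 and was at 0, 0.44 and 0 in sections 1 to 3 and at 2.72 to 4.28 in sections 10 to 19. Cdk19, its close relative, was at 3.78 and 3.19 in sections 1 and 2, at 0 to 0.13 in sections 3 to 8 and at 0.44 to 2.72 in sections 10 to 19. Its change was 0.39 ± 0.86 over all sections and 2.55 ± 0.55 without sections 1 and 2, where it rose (limma, adjusted p = 0.0040). Cdk12, a kinase of transcription elongation, fell at E5.5 by 3.03 ± 0.93 (limma, adjusted p = 0.022), with values of 5.04, 3.43, 3.33, 4.16, 1.67, 1.54, 2.07, 2.49 and 1.40. Sections 1 to 5 all lay above sections 6 to 10. Without sections 1 and 2, and without section 1 or section 10 alone, its call was lost, and at E5.75 its change was -1.21 ± 0.56 (limma, adjusted p = 0.13).

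Of the genes kept as a list of their own, 3 of 8 tested rose at E5.5 and at E5.75, beside 28.3% and 18.9% of all genes tested. Cdc34, a ubiquitin-conjugating enzyme of the SCF ligases, had the third highest mean FPKM at E5.75 (65.9) and the second at E5.5 (26.4). At E5.75 it was at 0 and 3.32 in sections 1 and 2, at 4.40 to 6.23 in sections 3 to 8 and at 5.54 to 7.06 in sections 10 to 19, with the highest value in section 18. It rose by 3.82 ± 0.85 (limma, adjusted p = 0.0032), and by 1.92 ± 0.42 without sections 1 and 2. Cdc123, which helps assemble a translation factor, rose at both stages (3.21 ± 0.91 and 3.65 ± 0.89), Plk3 at E5.75 (2.45 ± 0.75) and Cdc73, of the Paf1 complex, at E5.5 (1.996 ± 0.72). At E5.5 the call for Cdc123 was lost without section 1 and that for Cdc73 without any 1 of sections 1, 2, 7, 9 and 10, and at E5.75 that for Plk3 without any 1 of sections 1, 2, 17 and 18.

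**Figure D5:**
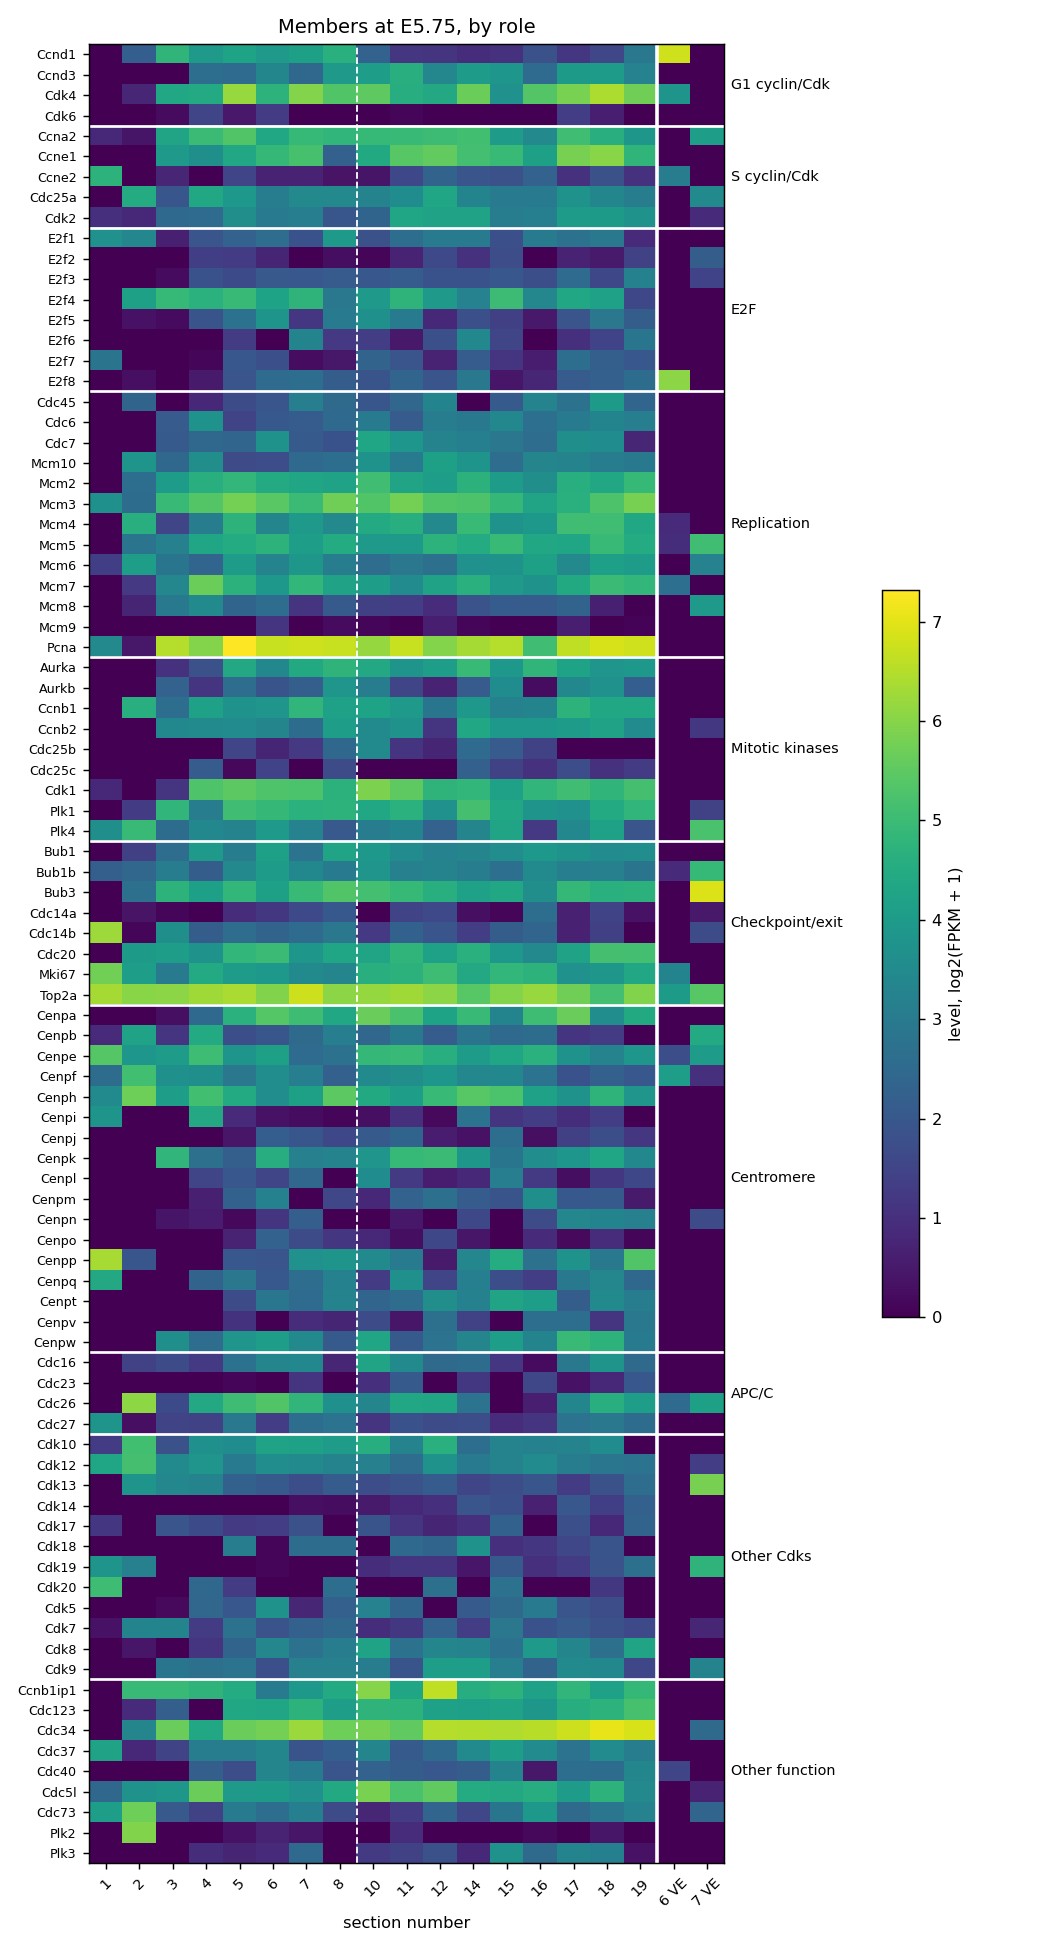
Level of each of the 89 members at E5.75 as a colour on the log2(FPKM + 1) scale, 1 row per gene ordered by role and 1 column per section, with a dashed line between sections 8 and 10 and the 2 samples labelled visceral endoderm at the right. Section 1 has 31 members above 0, while Top2a is above 5 in all 17 sections.

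The early and the late sections of E5.75 were also fitted apart and not tested against each other. In sections 1 to 8 alone the median change of 83 members was 2.04, against 1.23 over all genes, but with 8 sections limma called 0 members and 0.0% of 8751 genes. There 34 members had an unadjusted p under 0.05, 33 of them upward, as had 2394 of all genes. On simulated data this fit recovered 17.9% of log2 changes of 4 and 62.1% of those of 8. With the count of detected genes in the model, the medians in sections 1 to 8 were 0.47 for the members and -0.04 for all genes. In sections 10 to 19 alone the median change of 85 members was 0.08 (0.14 over all genes) and 1 member was called, beside 1.67% of 9967 genes. This was Cenpn, a reader of the centromeric histone, at 0, 0.46, 0, 1.58, 0, 1.68, 3.38, 3.29 and 3.20, with a rise of 3.62 ± 0.86 (limma, adjusted p = 0.047). The call was lost without any 1 of sections 10, 11, 12, 14, 16, 17, 18 and 19, with an adjusted p between 0.022 and 0.15 over the alternatives. Between the early and the late sections of E5.75, 7 members rose, beside 10.4% of all genes, and 1 fell, Ccnd1, beside 2.1%. The 7 were Ccnd3, Ccne1, Cdc123, Cdk8, Cdk14, Cenpt and Cenpv.

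The changes along the section number were compared between stages over 80 members. None differed by limma in any of the 3 contrasts, where 0.427% of 8660 genes differed between E5.75 and E5.5, 1.06% between E5.75 and E5.25 and 0.0% between E5.5 and E5.25. At an unadjusted p under 0.05 there were 6, 12 and 6 members, and the smallest adjusted p was 0.18, 0.13 and 0.20. Without section 1 of E5.75, 3 members had a smaller change at E5.75 than at E5.5 and 2 a smaller one than at E5.25, and without its section 2 the latter count was also 2. Without section 3 of E5.25, 1 member had a larger change at E5.75 than at E5.25. Calls at 1 stage and not at another, such as Cdc20, Plk1 and Pcna at E5.5 or Cdk14 at E5.75, are therefore not shown to differ between stages.

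Other genes of the pathway were taken from lists of inhibitors, pocket proteins and machinery. Their counts stand beside 28.3% of all genes tested that rose at E5.5 and 18.9% at E5.75. Of 4 Cdk inhibitors tested at E5.75, 2 rose. Cdkn2d, which blocks Cdk4 and Cdk6, rose by 2.83 ± 0.54 (limma, adjusted p = 0.00096) and kept its call under all 27 alternatives tried, as did Cdk14. Cdkn1c (p57), known for its part in the cell-cycle exit of trophoblast giant cells, rose by 3.29 ± 0.80 (limma, adjusted p = 0.0062). Cdkn1a (p21) and Cdkn1b (p27) had changes of 1.15 ± 0.95 and 0.72 ± 0.77 that did not pass. Of the pocket proteins that hold E2F in check none of 3 passed at E5.75. At E5.5 Rb1 fell by 6.83 ± 2.19 (limma, adjusted p = 0.027), a call that was lost without section 1, and its change without sections 1 and 2 was 0.12.

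Of 9 genes of origin recognition and licensing, 5 rose at each of E5.5 and E5.75. At E5.75 they included Cdt1, which loads the Mcm helicase (3.19 ± 0.86), its inhibitor Gmnn (3.96 ± 1.08) and the origin subunit Orc4 (2.69 ± 0.83). Of 22 genes of the replication machinery 7 rose and 1 fell at E5.5 and 4 rose at E5.75, such as Rrm2, a subunit of ribonucleotide reductase (4.53 ± 0.98). Of 18 spindle genes 5 rose at E5.5 and 5 at E5.75, among the latter Pttg1, the securin that holds back separase (3.64 ± 1.05), and Ndc80, of the outer kinetochore (2.77 at E5.75). Of 14 partners of the anaphase-promoting and SCF complexes 4 rose at E5.5 and 4 at E5.75, such as Anapc2, the cullin subunit (4.11 ± 0.79). Of 7 checkpoint genes 2 rose at E5.5 and none at E5.75. No list was tested against all genes. At E5.75 the call for Gmnn was lost without section 1, those for Orc4 and Pttg1 without section 1 or 2, and that for Ndc80 without any 1 of sections 1, 2, 3 and 19. Without sections 1 and 2 at E5.75, 1 inhibitor (Cdkn2d), 2 licensing genes, 1 gene of the replication machinery, 2 of the complex partners and none of the spindle genes rose.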

How the data were processed

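The deposited values are log2(FPKM + 1) per gene and section, in 1 table per stage, made by the authors. TopHat2 2.0.4, Cufflinks 2.0.2 and the build mm10 are named in the submitters' processing notes. No read counts were used, so depth is unknown and no count test was run. Columns were mapped by name to the labels of 45 samples; parts A and B of E5.5 sections 2 and 4 to 9 share 1 joined column each. The samples of columns 10 and 11 at E5.5 are titled parts A and B of section 10, although the source name of the second gives section 11; they were averaged as section 10. Taken as sections 10 and 11, 31 members rose and 1 fell. E5.75 sections 9 and 13 are not analysed here. The samples labelled visceral endoderm enter no test.

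On genes that reached an FPKM of 1 in 2 or more columns, limma 3.58.1 (R 4.3.3) fitted a line in section number scaled from 0 to 1, with a trended prior, and p-values were adjusted over all genes tested (Benjamini-Hochberg, threshold 0.05). A change is the fitted difference between the first and last section number of the stage, on the log2(FPKM + 1) scale, which understates the change of low genes. Fits that left sections out were still scaled to the full range of section numbers. Without sections 1 and 2 a change therefore reaches beyond the sections fitted and can exceed the spread of their values. Stages were compared by contrasts of their lines over the genes of all 3 tables. D-type cyclin pairs were tested by permutation; 5 pairs were possible because Ccnd2 is in the E5.5 table only. The fits were tested on simulated data.

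Genes named are all cyclins of classes A, B, D and E, for every other role up to 4 with the smallest p at E5.75 and 2 more at E5.5, members called in sections 1 to 8 or 10 to 19 of E5.75, up to 3 per pathway list and all Cdk inhibitors. Top2a, Cdk19, Mcm3 and the further genes of the 15 at E5.25, of the shared rises, of the high values in section 1 of E5.75 and of the centromere calls were named after their values were seen. The members and lists were chosen with earlier results of these data known. Alternatives were other pseudocounts, filters, scalings, covariates and samples left out, and those of the contrasts between stages were added after seeing the data.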

Additional observations from a re-analysis of the deposited data

Results flagged for a closer look

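At E5.75, 2 samples labelled visceral endoderm, the layer that covers the epiblast, were taken beside sections 6 and 7 and stand in no comparison. Markers bear the label out only in part. In the sample beside section 6, 6 of 14 visceral endoderm markers were above 0 (mean 1.47), with Amn, Afp, Ttr, Sox17, Gata4, Hnf4a, Foxa2 and Rbp4 at 0, while the giant cell list averaged 3.68. In the sample beside section 7, 8 of 14 were above 0 (mean 2.86), with Afp, Gata4, Gata6, Hnf4a, Foxa2 and Rbp4 at 0, and the epiblast list averaged 3.65. In the 17 sections the visceral endoderm list averaged 0.17 to 2.93. They showed few genes, with 14 and 29 of the 89 cell-cycle genes above 0, and Rn45s held 62.2% and 48.8% of their summed FPKM. The genes below are those whose level there, as log2(FPKM + 1), lay above that of all 17 sections. In the sample beside section 6, Ccnd1 was at 6.78 (highest section 4.80) and the repressor E2f8 at 6.04 (2.92). In the sample beside section 7, the checkpoint genes Bub1b and Bub3 were at 4.89 (4.01) and 6.93 (5.32). Cdk13 and Cdk19, kinases of transcription, were at 5.81 (3.79) and 4.75 (3.78) there. Cenpb, which binds centromeric DNA, was at 4.49 (4.48) and E2f2, an activator, at 2.16 (1.74). The helicase genes Mcm5 and Mcm8 were at 5.07 (4.93) and 3.96 (3.49), and Plk4 at 5.22 (4.96). These 2 and 9 members stand beside 602 (4.421%) and 764 (5.61%) of all 13618 genes above every section. No gene was above every section in both samples among the members.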

How the results depend on the processing

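No paired analysis was possible because each section number enters the fits as 1 value, parts A and B of most E5.5 sections come joined, and a section number at 1 stage names no section of another. With 1 embryo a stage and unknown depth, the precision for single genes is limited. Of the results that answer a comparison, 653 of the recomputed values kept their side, 76 counts or medians moved, 15 calls were lost and 3 changes reversed. Single named genes were less stable. For them 1390 recomputed values kept their side, 351 calls were lost, 3 were gained and 19 changes reversed. The cause was not tested.

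Median changes of all genes were lower after scaling: 0.91 (common sum) and 0.44 (quantile) against 1.22 at E5.5, and 0.66 and 0.16 against 0.80 at E5.75. Members rising at E5.25, 0 in the report, were 11 with a pseudocount of 0.1, 8 with a filter at FPKM 5, 5 without a trended prior, 1 on the order of sections and 15 between early and late sections. Falling, there was 1 with the low pseudocount and 1 with the filter at 5. Over all genes at E5.25, 934 rose with the low pseudocount, 483 without a trended prior, 219 on the order of sections and 1454 between early and late sections, of 7148 each. With the filter at 5, 763 of 3540 genes rose. Falling, there were 72 genes with the low pseudocount and 114 with that filter. At E5.5, against 30 rising and 1 falling, quantile normalization gave 15 and 2, the covariate 0 and 0, and leaving out sections 1 and 2 gave 2 and 0. Over all genes there, 850 of 8250 rose and 329 fell after quantile normalization, and 288 of 7755 rose without sections 1 and 2. At E5.75, against 20 and 0, a common sum gave 13 rising, quantile normalization 7 and 4, the covariate 2 rising, early against late sections 7 and 1, sections 1 and 2 left out 7 and 2, and the filter at 5 gave 1 falling. Over all genes there, 1433 of 11149 rose with a common sum, 405 of 11149 rose with the covariate and 211 of 7144 fell with the filter at 5. In sections 1 to 8, the filter at 5 gave 6 rising and no trended prior 1, beside 278 of 5042 and 17 of 8751 genes. In sections 10 to 19 the 1 rise became 0 with pseudocounts of 0.1 and 5, no filter, the filter at 5, a common sum and the covariate, and 1 fell with a common sum and with quantile normalization. There 71 of 9967 genes fell with a common sum and 67 of 9966 with quantile normalization. For E5.75 against E5.25, 1 member had a smaller change with the covariate and 2 without sections 1 and 2, beside 57 of 8660 and 69 of 8574 genes.

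Median changes of the phases are given here less that of all genes. G1 at E5.25 (0.62) became -3.68 with the covariate. G1 at E5.5 (2.12) became 3.67 with a pseudocount of 0.1, 0.93 with 5 and 0.48 with the covariate, and G1/S and S at E5.5 (0.73) became -0.17 with the covariate. G2 and M at E5.5 (1.79) became 2.70 and 0.72 with those pseudocounts and 0.73 with the filter at 5. G1 at E5.75 (0.71) became 1.91 with the filter at 5, -0.57 with the covariate and -0.34 without sections 1 and 2, and G2 and M (0.80) became -0.43 and -0.14 with the latter pair.

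Ccnd3 minus Ccnd1 at E5.25 was 4.55 on the order of sections (permutation, adjusted p = 0.0569) and 4.98 without sections 1 and 2 (adjusted permutation p = 0.0833). At E5.5 without those sections Ccnd2 minus Ccnd1 reversed to 2.08 and Ccnd3 minus Ccnd2, at 4.23, lost its call. Of single genes, with the covariate Aurka (-1.50), Bub1 (-0.30), Bub3 (-0.068), Ccne1 (-0.99), Cdk12 (0.28) and Rb1 (6.89) reversed at E5.5, and at E5.75 Cdk1 (-0.68), Cdk4 (-0.28), Cenpa (-0.32), Gins1 (-0.20), Pttg1 (-0.23) and Gmnn at E5.75 (-0.0054). At E5.5 Ccnd1 reversed with quantile normalization (-0.28), between early and late sections (-0.53) and without sections 1 and 2 (-2.30), as did Ccne1 (-0.68) and Rb1 (0.12) there.

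Leaving out each section in turn gave 0 to 11 rising and 0 to 2 falling at E5.25, 24 to 31 and 0 to 2 at E5.5, 11 to 22 and 0 to 1 at E5.75, 0 to 7 and 0 to 1 in sections 1 to 8, and 0 to 1 rising in sections 10 to 19. It gave 0 to 3 members with a smaller change for E5.75 against E5.5, and 0 to 1 larger and 0 to 2 smaller for E5.75 against E5.25. G1 at E5.25 ranged from -1.17 to 1.13. Ccnd3 minus Ccnd1 ranged from 3.38 to 6.31 at E5.25, Ccnd2 minus Ccnd1 from -0.78 to 0.31, Ccnd3 minus Ccnd2 from 3.07 to 3.69 and Ccnd1 at E5.5 from -0.31 to 0.86 (-0.10 without section 2).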
